A study of Mus musculus with 18 samples.

Results

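The circadian clock of a mouse cell is a loop of transcription factors and their inhibitors. BMAL1, encoded by Arntl, pairs with CLOCK and switches on the Per and Cry genes, the nuclear receptor genes Nr1d1 and Nr1d2, and the output genes Dbp and Tef. PER and CRY proteins then hold back the BMAL1 and CLOCK pair, and the REV-ERB receptors made from Nr1d1 and Nr1d2 repress Arntl and Clock. Over a day, Arntl therefore runs roughly opposite to Dbp and Nr1d1 in most tissues, the spleen included. The 10 clock genes described here are the activators Arntl and Clock, the repressors Per1, Per2, Per3, Cry1, Nr1d1 and Nr1d2, and the outputs Dbp and Tef, whose proteins bind D-boxes. They were taken by gene symbol from the 19323 names of an expression table of mouse spleen, and all 10 were found. The set was selected on measured values, since it was proposed after Per1 had been seen to be higher in diabetic spleens than in controls, and that comparison is given here as a description.

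Spleens of ICR mice aged 10 weeks were sequenced as 18 libraries, 3 in each of 6 groups. Con mice were controls, and A10 mice were given 10 mg per kg of AOS, an oligosaccharide cut from the alginate of seaweed. STZ mice were given streptozotocin, a toxin of the insulin-making cells that models type 1 diabetes, and STZ-A10 mice were given both. Con-FMT and A10-FMT mice were given streptozotocin and a transplant of gut microbiota, from control donors or from donors dosed with AOS at 10 mg per kg. All 12 libraries outside Con and A10 thus come from mice given streptozotocin. Per the study's methods, the mice of Con, STZ and the transplant groups were male, the toxin was given as a single dose, and donor material was pooled within a donor group. How AOS reached the A10 and STZ-A10 mice is not given in the sources used here. The mice lived in equal periods of light and dark. The hour at which each spleen was taken is not given in the sources used here, so that hour and treatment cannot be told apart for genes that cycle over the day.

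Levels are given as RPKM, the reads of a gene scaled to its length and to the mapped reads of its library, and can be set against each other between genes. The spleen markers were present in every library, with a summed level of 9 B cell genes of 603 to 2804 RPKM. A10-FMT replicate 3 stood apart, with the lowest sums of B cell genes (603 RPKM) and of 12 T cell genes (88.6 RPKM) and the highest of 12 erythroid genes (5531 RPKM). Genes of other tissues were uneven too. The sum of 12 exocrine pancreas genes was 21670 RPKM in A10-FMT replicate 2, where the other libraries ran from 25.7 to 8711 RPKM, the sum of 10 testis germ cell genes was 310 RPKM in Con replicate 2, and 10 neutrophil genes summed to 6162 RPKM in Con replicate 1. The part of these differences in the clock genes was not tested. In this bulk tissue, fewer cells of a type and less RNA per cell cannot be told apart.

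The start regions of the clock genes are shown first, because the members that moved together differ in the elements they hold. RefSeq start regions of 300 bases, from 250 before to 50 after a start on build GRCm38.p6, were found for 9 of the 10 genes (14 starts). The letters searched, on both strands, were the E-box CACGTG and its variant CACGTT, both read by BMAL1 and CLOCK, the D-box as TTATGTAA or TTATGCAA, read by DBP and TEF, the element TAGGTCA read by ROR and REV-ERB receptors, and the CRE TGACGTCA read by CREB. Of 32851 start regions of this length in the table, 7.15% held the E-box, 4.68% its variant, 1.66% a D-box, 2.61% the ROR element and 1.79% a CRE. The regions of Per1 (chr11:69098699-69098998, plus strand), Per3 (chr4:151044616-151044915, minus strand), Cry1 (chr10:85185005-85185304, minus strand) and Tef (chr15:81802423-81802722, plus strand) are printed from 5′ to 3′ with matches in capitals. Per1 stands for the gene with the clearest group pattern, Cry1 for the gene that followed Arntl, and Per3 and Tef for a pair that varied together.

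Per1: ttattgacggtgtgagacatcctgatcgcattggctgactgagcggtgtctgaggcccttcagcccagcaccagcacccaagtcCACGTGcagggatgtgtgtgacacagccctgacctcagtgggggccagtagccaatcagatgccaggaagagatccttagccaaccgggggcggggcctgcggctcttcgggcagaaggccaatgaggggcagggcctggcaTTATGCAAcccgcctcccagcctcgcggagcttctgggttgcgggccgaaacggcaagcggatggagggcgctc
Per3: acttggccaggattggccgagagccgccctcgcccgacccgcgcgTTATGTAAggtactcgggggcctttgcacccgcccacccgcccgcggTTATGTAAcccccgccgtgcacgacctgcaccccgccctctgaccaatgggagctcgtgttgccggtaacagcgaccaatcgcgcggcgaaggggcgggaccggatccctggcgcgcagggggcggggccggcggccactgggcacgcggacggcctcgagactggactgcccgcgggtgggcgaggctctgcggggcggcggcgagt
Cry1: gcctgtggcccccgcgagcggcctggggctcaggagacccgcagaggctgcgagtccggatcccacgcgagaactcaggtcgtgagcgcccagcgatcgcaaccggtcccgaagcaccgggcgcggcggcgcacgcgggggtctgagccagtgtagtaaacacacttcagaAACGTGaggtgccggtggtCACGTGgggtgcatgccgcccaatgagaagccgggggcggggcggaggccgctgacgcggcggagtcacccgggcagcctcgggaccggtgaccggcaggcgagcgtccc
Tef: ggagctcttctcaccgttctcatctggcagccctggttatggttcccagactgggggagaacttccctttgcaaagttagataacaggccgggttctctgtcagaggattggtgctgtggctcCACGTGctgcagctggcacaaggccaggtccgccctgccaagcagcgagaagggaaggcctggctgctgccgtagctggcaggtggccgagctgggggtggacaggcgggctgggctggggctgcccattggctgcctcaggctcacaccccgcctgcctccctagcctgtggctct

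The Per1 region held an E-box beginning 166 bases before the start and a D-box 24 bases before it. The second Per1 start in the table had no match. Per3 had 2 D-boxes, beginning 205 and 158 bases before the start, and no E-box. Cry1 had an E-box at 60 bases and the variant, on the reverse strand, at 79 bases before the start. Each of the 2 Tef starts had an E-box, at 127 and 138 bases before it. Nr1d1 held the variant E-box on the reverse strand 28 bases before its start, and 1 of the 2 Arntl starts held the ROR element, which began 30 bases after it. The 3 Clock starts and those of Dbp and Nr1d2 held none of these letters, and no member held the CRE. The printed matches did not overlap each other. A match is a stretch of letters and says nothing by itself about binding, and windows of this length leave out distant elements.

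Per1 (chromosome 11, 69095217 to 69109960, plus strand, GENCODE M21 on GRCm38), a repressor of the loop that is also induced acutely by stress hormones, was the member with the most distinct group pattern. It was measured at 5.42, 7.04 and 9.14 RPKM in Con and at 8.17, 7.41 and 8.32 RPKM in A10. The STZ libraries had 15.25, 20.24 and 12.23 RPKM, and those of STZ-A10 had 15.96, 14.40 and 19.41 RPKM. After transplantation the levels were 8.89, 9.27 and 11.36 RPKM in Con-FMT and 7.49, 7.55 and 7.89 RPKM in A10-FMT. All 6 libraries from mice given streptozotocin without a transplant therefore lay above the other 12. The groups ran from Con (7.20 ± 1.87 RPKM, SD, n = 3) through A10-FMT (7.64 ± 0.216), A10 (7.97 ± 0.488) and Con-FMT (9.84 ± 1.33) to STZ (15.9 ± 4.05) and STZ-A10 (16.6 ± 2.56). Con, A10-FMT and A10 overlapped, as did STZ and STZ-A10, whereas the step between Con-FMT and STZ had no overlap.

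Per2 (chromosome 1, 91415982 to 91459324, minus strand) and Per3 (chromosome 4, 151003652 to 151044665, minus strand), the other Period genes, had lower levels than Per1. Per2, the more even of the pair, ran from 2.28 RPKM in Con replicate 1 to 4.65 RPKM in STZ replicate 1, with group means between 2.83 ± 0.250 RPKM in A10 and 3.86 ± 0.682 RPKM in STZ (SD, n = 3). Per3 ran from 0.94 RPKM in A10-FMT replicate 3, the single member value under 1 RPKM, to 4.88 RPKM in STZ replicate 1. Its STZ libraries were 4.88, 2.99 and 1.81 RPKM and its STZ-A10 libraries 3.79, 3.94 and 2.86 RPKM, against 2.61, 2.54 and 1.93 RPKM in A10 and 1.80, 2.22 and 0.94 RPKM in A10-FMT. The STZ libraries thus spanned nearly the whole range of Per3 on their own. Cry1 (chromosome 10, 85131700 to 85185064, minus strand), the cryptochrome partner of the PER proteins, was highest in Con (7.22 ± 1.49 RPKM) and A10 (7.08 ± 0.343 RPKM) and lowest in A10-FMT (4.48 ± 1.84 RPKM), where its libraries had 5.71, 5.37 and 2.37 RPKM.

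Nr1d1 had the lowest level of the 10 genes in controls. Its Con libraries held 1.61, 1.99 and 2.13 RPKM, those of A10 5.68, 6.09 and 3.15 RPKM and those of STZ 10.59, 8.95 and 2.49 RPKM. STZ-A10 reached 12.68, 12.92 and 7.60 RPKM and Con-FMT 9.67, 8.79 and 7.47 RPKM, while A10-FMT had 4.09, 4.99 and 1.58 RPKM. All Con libraries were below every library of A10, STZ, STZ-A10 and Con-FMT, and overlapped A10-FMT. In order of the means, Con and A10-FMT were neighbours that overlapped, as were A10-FMT and A10, A10 and STZ, STZ and Con-FMT, and Con-FMT and STZ-A10. The exons of Nr1d1 (chromosome 11, 98767932 to 98775333, minus strand) share 263 of 3077 bases with Thra on the opposite strand, and reads of the pair there cannot be told apart in a library whose strand is not recorded. Thra varied less, from 6.48 to 11.88 RPKM. Nr1d2 (chromosome 14, 18204054 to 18239127, minus strand), the related receptor, was 5.66 to 10.32 RPKM in Con and reached 18.68 RPKM in STZ replicate 1, and A10-FMT replicate 3 had the lowest value, 3.54 RPKM.

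Dbp, an output gene with a large daily swing in many tissues, had the widest range of the 10 genes. It was 4.89, 7.12 and 7.15 RPKM in Con, 9.69, 8.78 and 6.19 RPKM in A10, and 13.94, 16.21 and 8.71 RPKM in STZ-A10. The STZ libraries were far apart, at 21.16, 7.68 and 3.69 RPKM, which include the highest Dbp value of all 18 libraries and the second lowest. Con-FMT was the most even group, at 16.19, 16.82 and 17.20 RPKM, and A10-FMT had 6.44, 9.34 and 1.76 RPKM. Every Con-FMT library was thus above every library of Con, A10 and A10-FMT. The exons of Dbp (chromosome 7, 45705088 to 45710203, plus strand) share 539 of 2993 bases with Sphk2 on the opposite strand, which ran from 10.42 to 16.91 RPKM. Arntl and Tef share 33 and 193 exon bases with predicted genes on the opposite strand. Tef, its relative (chromosome 15, 81802421 to 81826863, plus strand), varied along with Dbp, with 20.28, 12.36 and 9.58 RPKM in STZ, 13.24, 14.94 and 16.53 RPKM in Con-FMT and 10.03, 12.01 and 4.60 RPKM in A10-FMT.

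The activators had narrower ranges than the other members except Per2. Arntl (chromosome 7, 113207465 to 113314126, plus strand) was 5.29, 9.10 and 10.70 RPKM in Con, 8.53, 8.63 and 9.18 RPKM in A10, 6.89, 6.64 and 7.27 RPKM in STZ and 7.88, 6.59 and 6.82 RPKM in STZ-A10. It was 6.63, 7.09 and 6.54 RPKM in Con-FMT and 5.98, 6.21 and 4.11 RPKM in A10-FMT, so that each A10 library exceeded each library of the 4 groups given streptozotocin. Con replicates 1 and 3 held the second lowest and the highest Arntl values of the series. Clock (chromosome 5, 76209868 to 76304792, minus strand) stayed between 3.21 and 6.55 RPKM and had no group clear of all others. In 8 of the 10 members, both activators included, the lowest of the 18 values was that of A10-FMT replicate 3.

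**Figure D1:**
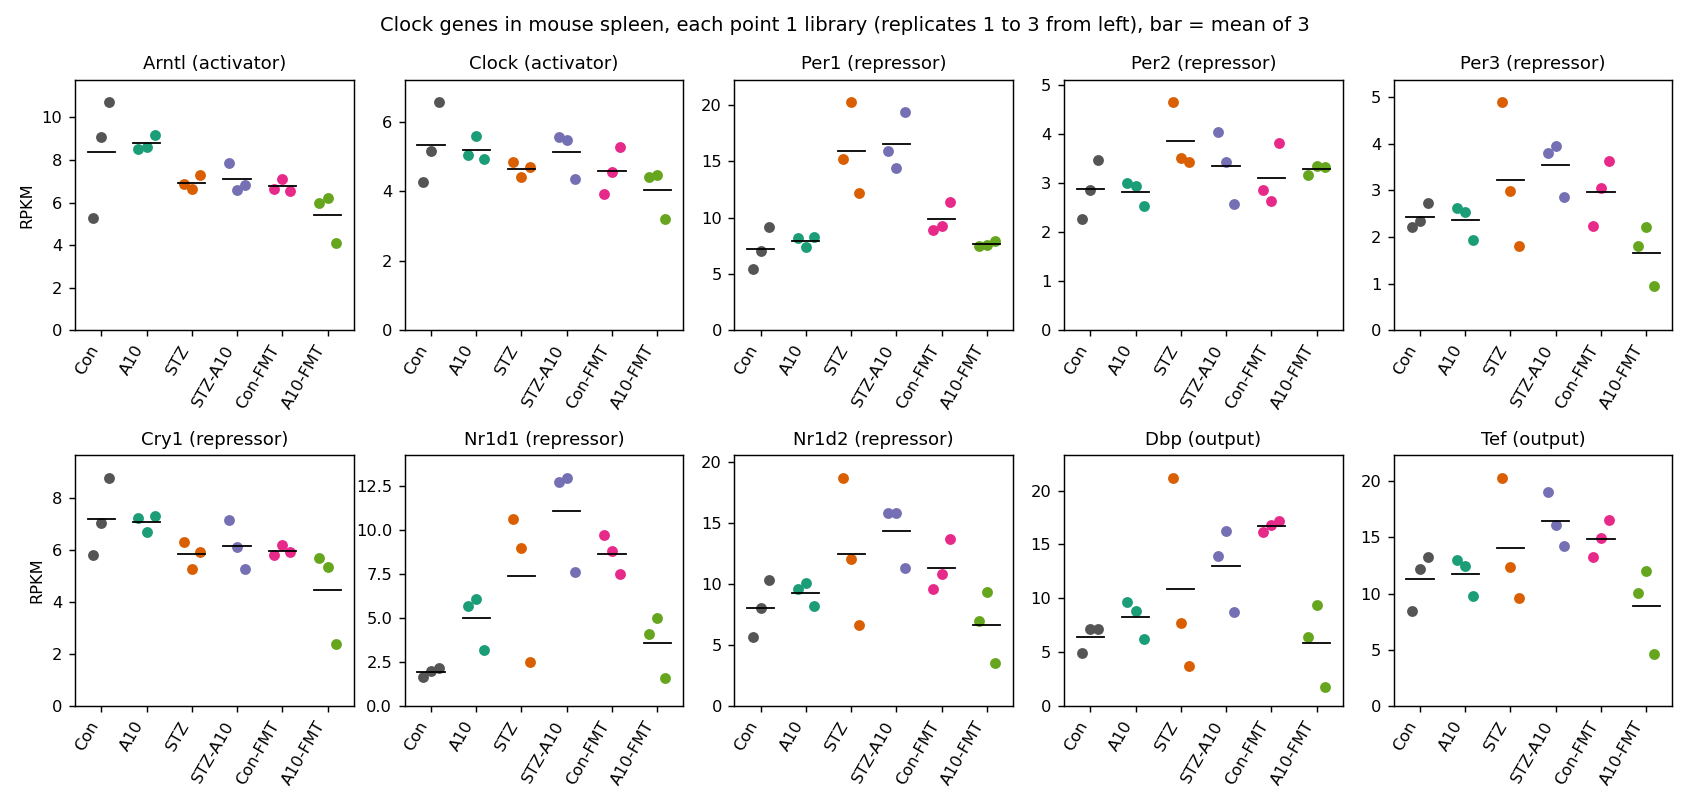
RPKM of each of the 10 clock genes (vertical axis, a separate scale from 0 for each gene) in the 3 libraries of the 6 groups, with a bar at the group mean. The 6 Per1 points of STZ and STZ-A10, between 12.23 and 20.24 RPKM, lie above the other 12, and the 3 Dbp points of Con-FMT lie close together at 16.19 to 17.20 RPKM.

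The comparison of STZ with Con asked what streptozotocin diabetes does in the spleen. Per1 was higher in STZ by 1.04 on the log2(RPKM + 1) scale (SE 0.177) and Nr1d1 by 1.35 (SE 0.390), a scale that understates the change of low genes. Nr1d2 differed by 0.51 (SE 0.321), Dbp by 0.40 (SE 0.481), Per2 by 0.33 (SE 0.155), Tef by 0.25 (SE 0.285) and Per3 by 0.24 (SE 0.237), all upward, while Arntl (-0.19), Clock (-0.15) and Cry1 (-0.25) were lower. Libraries of the groups did not overlap for Per1 and Nr1d1, 2 of the 10 genes, where 12.8% of the 12905 genes tested were in that position and 0.163% passed an adjusted p of 0.05 (21 genes, by limma). Since the members were chosen with this comparison in view, no test is given. STZ replicate 3 differed from the other STZ libraries. Without it the difference was 0.92 for Dbp and 1.89 for Nr1d1, while that of Per1 was 1.20. Without STZ replicate 1, the differences of Dbp, Per3 and Tef turned to -0.20, -0.03 and -0.03. The 10 red pulp macrophage genes summed to 555 to 602 RPKM in STZ and 393 to 551 RPKM in Con, and 10 platelet genes to 244 to 725 RPKM and 829 to 2079 RPKM. Sums of 10 adipose genes (15.3 to 36.3 RPKM in STZ and 38.7 to 177 RPKM in Con) and of the testis genes (2.75 to 9.08 RPKM and 18.8 to 310 RPKM) were apart as well. Of 12 liver genes, 9 had libraries wholly lower in STZ, with a median difference of -2.29 over the list, although the sums of the list overlapped. The part of these tissues in the values was not tested.

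The same contrast was available in mice given AOS, in libraries outside the comparison that led to the choice of members. It is not an independent check, since members and tests were chosen with earlier results of these data known. The spread was estimated over all 18 libraries, STZ and Con included. Per1 was higher in STZ-A10 than in A10 by 0.96 (SE 0.177), with a limma p of 6.31e-05 and an adjusted p of 0.0627 over 12905 genes, just short of the threshold. Nr1d1 was higher by 1.02 (SE 0.390, p 0.0192, adjusted p 0.348). None of the 10 members passed the adjusted threshold, which 7 genes (0.0542%) did. An unadjusted p under 0.05 was reached by 2 members, Per1 and Nr1d1, and by 1317 of all 12905 genes. The STZ-A10 libraries lay beyond all A10 libraries for 6 of 10 members, where 22.6% of all genes tested were so placed. Per1, Per3, Nr1d1, Nr1d2 and Tef were on the higher side, with differences of 0.43 to 1.02, and Arntl on the lower side, by -0.28 (SE 0.181, adjusted p 0.681). The other 4 members differed by -0.18 to 0.58 with overlapping libraries. The median difference was 0.44 over the members and -0.03 over all genes tested. The call of Per1 depended on how it was scaled and fitted: the adjusted p was 0.0464 after quantile normalization, 0.0451 after rescaling without globin genes, 0.0421 after median centring and 0.0295 with only the 2 groups in the model, and it lay under 0.05 when any 1 of 5 libraries was left out, Con replicate 1, STZ replicate 2, STZ replicate 3, A10-FMT replicate 2 and A10-FMT replicate 3 (lowest 0.0288). The difference itself stayed between 0.85 and 1.05 when single libraries were left out. T cell genes summed to 252 to 395 RPKM in STZ-A10 and 452 to 502 RPKM in A10, exocrine pancreas genes to 5629 to 8711 RPKM and 51.6 to 833 RPKM, macrophage genes to 561 to 744 RPKM and 447 to 495 RPKM, and adipose genes to 36.2 to 90.5 RPKM and 98.8 to 277 RPKM, and the part of these tissues was not tested.

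Whether the streptozotocin difference depended on AOS was tested as an interaction. No member passed (0 of 12905 genes in all, 0%, with 369 genes at an unadjusted p under 0.05), and each member had an adjusted p of 1. For Per1 the interaction was -0.08 with a 95% interval of -0.61 to 0.45, and for Nr1d1 -0.33 with an interval of -1.50 to 0.84. The interaction contains the difference of STZ from Con, which was in view when the members were proposed. Its intervals are therefore a description, and no conclusion on dependence on AOS is drawn from them. Beside the differences of STZ-A10 from A10, the Per1 interval did not reach the size of 0.96. The interval of Nr1d1 extended past the size of 1.02 on the lower side.

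AOS was compared with its control in mice with and without streptozotocin. In A10 against Con, which shares the Con libraries with the comparison of STZ, Nr1d1 was higher by 1.00 (SE 0.390, p 0.0209, adjusted p 0.789) and was the only member whose libraries did not overlap, where 16.5% of all genes did not. The other members differed by -0.03 to 0.32. Erythroid genes summed to 1218 to 1793 RPKM in A10 and 1871 to 2984 RPKM in Con, T cell genes to 452 to 502 RPKM and 242 to 435 RPKM, and testis genes to 1.47 to 2.80 RPKM and 18.8 to 310 RPKM, each without overlap, and their part in the Nr1d1 difference was not tested. In STZ-A10 against STZ no member had libraries apart (8% of all genes had), and differences ran from -0.16 for Per2 to 0.67 for Nr1d1 (SE 0.390). Exocrine pancreas genes summed to 5629 to 8711 RPKM in STZ-A10 and 1158 to 5114 RPKM in STZ. Testis genes summed to 0.74 to 1.93 RPKM and 2.75 to 9.08 RPKM. Both sums were apart, and their part was not tested. In each of these comparisons, as in both that follow against STZ, 1 gene (0.00775%) passed the adjusted threshold. Per1 is not counted here, since its STZ and Con values were in view when the members were proposed. None of the other members passed.

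The transplant groups were compared with STZ, whose libraries they share as the reference. Per1 had been seen to be high in these STZ libraries when the members were proposed. Its differences from STZ draw on the same values and are given as a description, without a test. The p-values of the other members rest on those STZ libraries too. In A10-FMT all 10 members were lower than in STZ, with a median of -0.64 where the median over all genes tested was -0.15. After quantile normalization, which removes that shift, 8 were lower, and Clock and Per2 were higher by 0.05 each. Per1 differed by -0.94 (SE 0.177). Of all 12905 genes, 2216 had an unadjusted p under 0.05 in this comparison. Nr1d2 (-0.80, SE 0.321), Per3 (-0.64, SE 0.237) and Tef (-0.63, SE 0.285) were among them, with adjusted p of 0.265, 0.248 and 0.281. Without A10-FMT replicate 3 these 3 shrank to -0.46, -0.43 and -0.27, while Per1 was -0.96. Arntl, Per1 and Per2 were lower with no overlap between libraries, 3 of 10 where 14.4% of all genes had none. Of the tissue markers, macrophage genes summed to 343 to 465 RPKM in A10-FMT and 555 to 602 RPKM in STZ, 12 liver genes to 161 to 442 RPKM and 56.6 to 69.7 RPKM, adipose genes to 44.1 to 107 RPKM and 15.3 to 36.3 RPKM, and testis genes to 0.55 to 1.35 RPKM and 2.75 to 9.08 RPKM. These sums did not overlap either, and their part in the clock gene differences was not tested. In Con-FMT, Per1 was different from STZ by -0.62 (SE 0.177) and was the only member whose libraries did not overlap, against 13.2% of all genes. Dbp was higher than in STZ by 0.88 (SE 0.481, adjusted p 0.961), and the remaining members ran from -0.24 to 0.38. T cell genes (376 to 420 RPKM in Con-FMT and 223 to 338 RPKM in STZ) and testis genes (0.50 to 1.63 RPKM and 2.75 to 9.08 RPKM) were apart in this comparison too, and their part was not tested.

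The 2 donor groups were compared directly, in libraries outside the comparison that led to the choice of members. Dbp was lower in A10-FMT than in Con-FMT, with a difference of -1.57 (SE 0.481, p 0.00506, adjusted p 0.204). Nr1d1 differed by -1.16 (SE 0.390, adjusted p 0.204), Tef by -0.77 (SE 0.285, adjusted p 0.204), Nr1d2 by -0.76 (SE 0.321, adjusted p 0.204) and Per3 by -0.60 (SE 0.237, adjusted p 0.204), each with an unadjusted p under 0.05. Cry1 (-0.41), Per1 (-0.32) and Arntl (-0.29) were lower with overlap-free libraries as well, while Clock (-0.15) and Per2 (0.07) overlapped. Libraries of the 2 groups were thus apart for 8 of 10 members, all lower in A10-FMT, where 29.3% of all genes were apart. No gene of the 12905 passed the adjusted threshold (0%), though 3040 had an unadjusted p under 0.05, of which 2590 were lower in A10-FMT, and the median over all genes was -0.17 against -0.50 over the members. With quantile normalization or median centring, Clock was slightly higher in A10-FMT (0.09 and 0.02 on the same scale).

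A10-FMT replicate 3, with few lymphocyte transcripts, held the lowest value of the series for 8 members. Without it the 8 members were still apart in the same direction (33.1% of all genes then were), but the differences were smaller: -1.02 for Dbp, -0.80 for Nr1d1, -0.43 for Nr1d2, -0.40 for Tef and -0.39 for Per3, each with an adjusted p of 0.865. Without A10-FMT replicate 2, which carried pancreas transcripts, Dbp (-1.97, adjusted p 0.0351), Tef (-1.01, 0.0364), Nr1d1 (-1.41, 0.0386) and Nr1d2 (-1.02, 0.0456) passed, and so did 2625 of all genes tested, while 62.0% of all genes then had libraries apart. The marker sums of A10-FMT and Con-FMT did not overlap for 4 marker lists. B cell genes had 603 to 2056 RPKM after transplants from AOS donors and 2218 to 2369 RPKM after those from controls. The same sums were 88.6 to 351 RPKM and 376 to 420 RPKM for T cell genes, and 2383 to 5531 RPKM and 1938 to 2229 RPKM for erythroid genes. For the 12 liver genes they were 161 to 442 RPKM and 64.2 to 102 RPKM, and 9 of the 12 had libraries wholly higher in A10-FMT, with a median difference of 2.16 over the list. The part of these cell types in the clock gene differences was not tested. The share of the 9 globin genes in the summed RPKM was 28.3% to 42.7% among A10-FMT libraries, against 21.8% to 32.0% for Con-FMT.

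**Figure D2:**
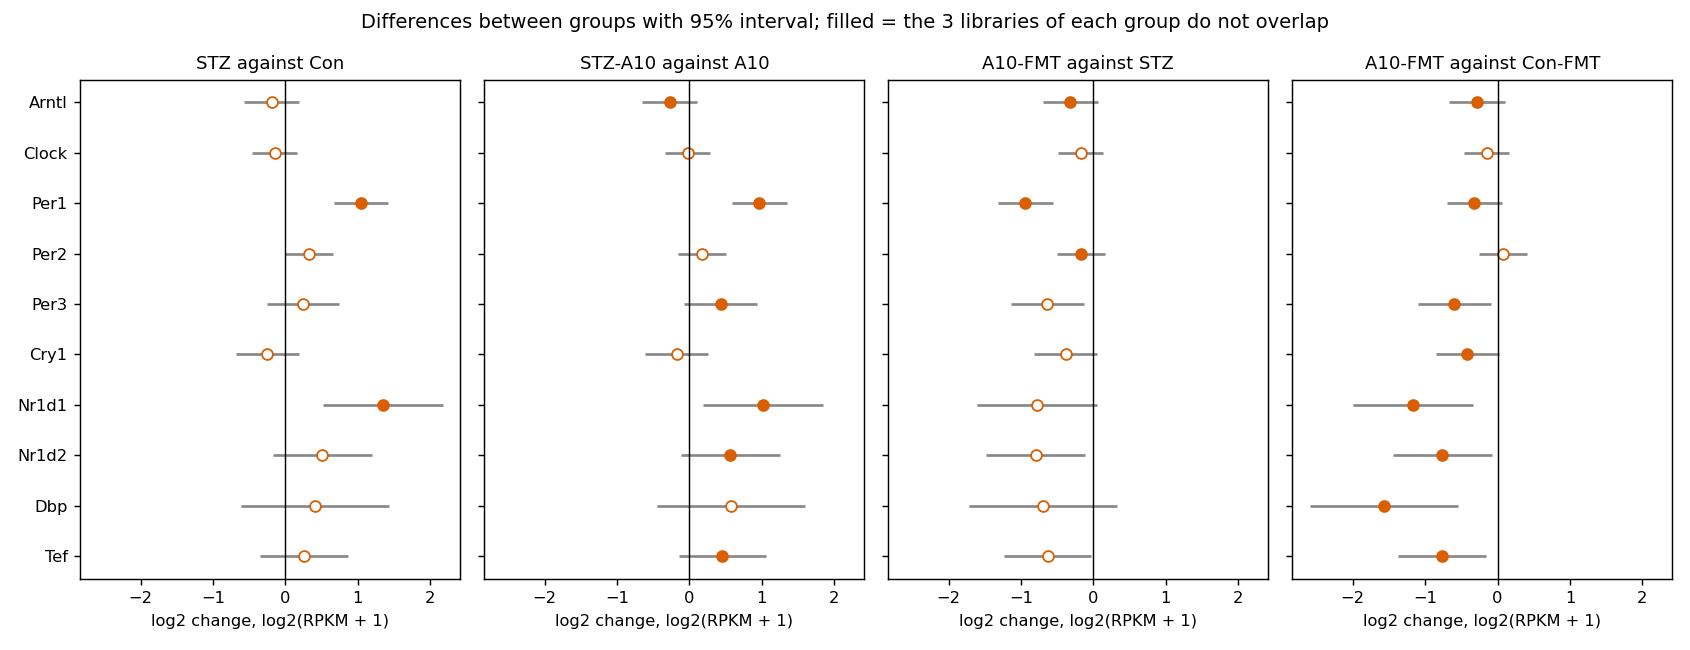
Difference of each clock gene between groups (horizontal axis, log2(RPKM + 1)) with its 95% interval in 4 comparisons; filled points mark genes for which the 3 libraries of each group did not overlap. Per1 lies near 1 in both streptozotocin comparisons and at -0.94 in A10-FMT against STZ, and 9 of 10 points lie below 0 in A10-FMT against Con-FMT.

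An F-test over A10, STZ-A10, Con-FMT and A10-FMT asked whether each gene differed between any of them. These 4 groups lay outside the comparison that led to the choice of members. Per1 came closest to the threshold, with a p of 0.000120 and an adjusted p of 0.0571, and 8 of 10 members (all except Clock and Per2) had an unadjusted p under 0.05, as did 4048 of all 12905 genes. No member passed, and 17 genes (0.132%) did. The adjusted p of Per1 was 0.0478 after rescaling without globin genes and 0.0385 with only these groups in the model. Those of Arntl, Per3, Nr1d1, Nr1d2, Dbp and Tef lay between 0.103 and 0.134, and that of Cry1 was 0.158.

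Ratios within a library do not depend on how the library was scaled. The log2 ratio of Dbp to Arntl was -0.11, -0.35 and -0.58 in Con and 0.18, 0.02 and -0.57 in A10. It was 1.62, 0.21 and -0.98 in STZ, 0.82, 1.30 and 0.35 in STZ-A10, 1.29, 1.25 and 1.40 in Con-FMT and 0.11, 0.59 and -1.22 in A10-FMT. All Con-FMT and STZ-A10 libraries thus had more Dbp than Arntl per unit length, all Con libraries had less, and the STZ and A10-FMT libraries lay on both sides. For Nr1d1 over Arntl, the ratio was -1.72, -2.19 and -2.33 in Con and -1.55 or higher in every other library. Per1 over Arntl was at least 0.75 in each STZ and STZ-A10 library, and in 10 of the other 12 it was at most 0.42. It was 0.80 in Con-FMT replicate 3 and 0.94 in A10-FMT replicate 3, both above STZ replicate 3 (0.75). On this ratio, STZ therefore overlapped both transplant groups. These ratios are a description and were not tested.

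**Figure D3:**
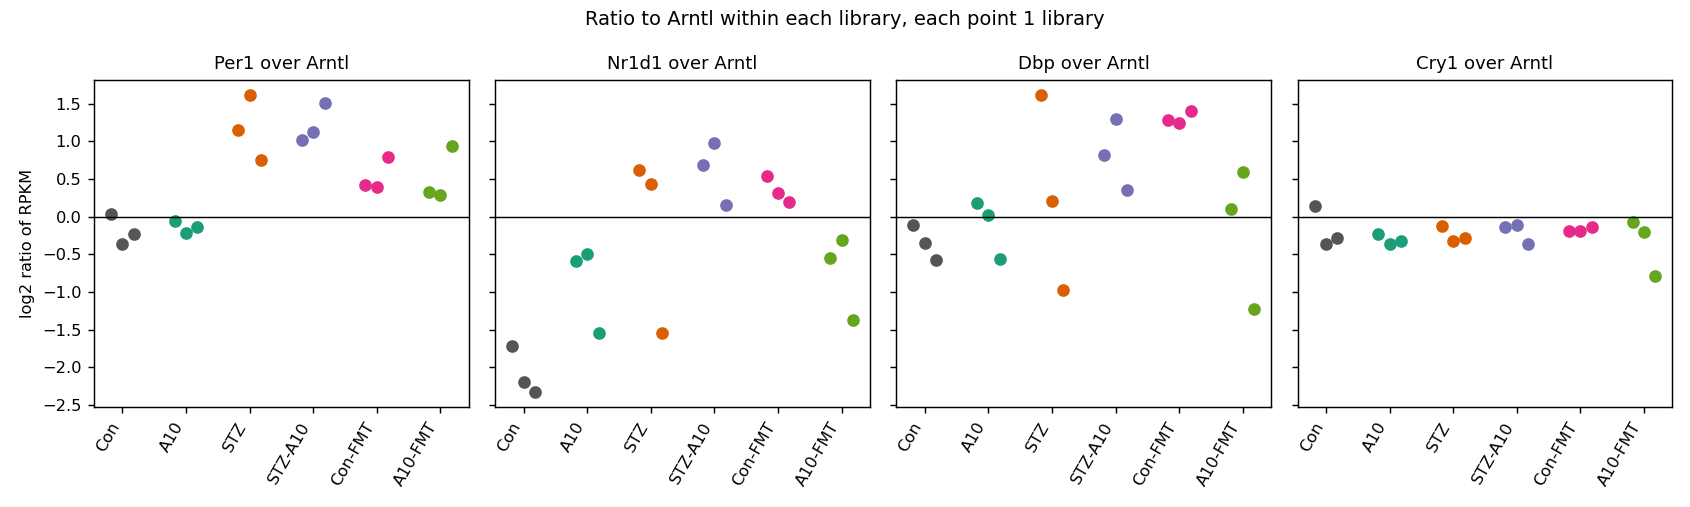
Log2 ratio of the RPKM of Per1, Nr1d1, Dbp and Cry1 to that of Arntl (vertical axis) in each of the 18 libraries by group. Dbp over Arntl is 1.25 to 1.40 in the 3 Con-FMT libraries and spans 1.62 to -0.98 in STZ, while Cry1 over Arntl stays between -0.79 and 0.14.

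Over the 18 libraries, the activators were set against the other members. Arntl varied together with Cry1, at Pearson's r = 0.877 and Spearman's rho = 0.843 (permutation p 1e-05, the smallest that 100000 resamples can give, and 3e-05, adjusted over 9 relations 9e-05 and 0.00027), and r was 0.809 without A10-FMT replicate 3 and Con replicate 3, the libraries farthest from the Arntl median. Within groups, after group means were subtracted, r was 0.787 (exact permutation p 0.00497, adjusted 0.0448). The within-group relation did not pass under the other scalings, with r of 0.581 after quantile normalization, 0.745 after rescaling without globin genes and 0.625 after median centring (adjusted permutation p 0.187, 0.0667 and 0.0608). With Clock, r was 0.819 and rho 0.675 (permutation p 9e-05 and 0.00272, adjusted 0.000405 and 0.0122), r without the same libraries was 0.577, and the within-group r of 0.742 had an adjusted exact permutation p of 0.134. After quantile normalization, r with Clock over all libraries was 0.527 and did not pass (adjusted permutation p 0.113). With Tef, r was 0.477 and rho 0.226 (permutation p 0.0479 and 0.366, adjusted 0.144 and 0.726), and r fell to 0.104 without those libraries. No inverse relation was detected between Arntl and the genes that run opposite to it over a day. For Dbp r was 0.270 and rho 0.0341 (permutation p 0.280 and 0.897, adjusted 0.421 and 0.981), and for Nr1d1 r was 0.0449 and rho 0.00722 (permutation p 0.862 and 0.981, adjusted 0.971 and 0.981). For Per2, Per3 and Nr1d2, r ran from -0.00914 to 0.398, with adjusted permutation p of 0.232 to 0.971. Their rho ran from -0.0372 to 0.209, with adjusted permutation p of 0.726 to 0.981. For Per1 r was 0.0345 and rho 0.0939, as a description, since its STZ and Con values were in view when the members were proposed. The 18 libraries include STZ and Con, so the p-values of the other relations rest on those libraries too. Without the 2 libraries named above, r lay between -0.068 and 0.104 for all members except Clock and Cry1. The sign of the weak relations changed with the scaling, and after quantile normalization r was -0.360 for Nr1d1 and -0.214 for Dbp, with adjusted permutation p of 0.321 and 0.527.

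Among the other members, Nr1d2 correlated with Per3 and with Tef at r of 0.96 each over the 18 libraries, Per3 with Tef at 0.94 and Dbp with Tef at 0.92. Nr1d1 correlated with Dbp and Nr1d2 at 0.84. All values of r here share their libraries, and so their scaling and cell makeup. Per1 stood closer to Nr1d1 (0.66) and Nr1d2 (0.65) than to Dbp (0.36). STZ replicate 1, with the lowest globin share of the series (10.4%), had the highest values of Per2, Per3, Nr1d2, Dbp and Tef, and A10-FMT replicate 3, with the highest (42.7%), the lowest of Per3, Nr1d1, Nr1d2, Dbp and Tef.

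Genes whose log2(RPKM + 1) was most like that of a member were listed over all genes tested. For Dbp, the 10 were Tef (r of 0.918), Gpn2, Kctd2, Dus3l, Nr1d2 (0.887), Gga1, Coq10a, Zfp865, Ppcdc and Zfp513 (0.875), 2 of them members. For Arntl, they were Nod2 (0.942), Exoc6b, Klhl8, Tnks2, Prf1, Rsf1, Amotl1, Parm1, Pde4dip and Nfe2l1 (0.912), with no clock gene among them. The list for Per1 was added after its values had been seen and was led by Pdk4 (0.940), which encodes a kinase that limits glucose oxidation, and held Cntfr, Ston1, Fkbp5 (0.904), Sesn1, Tbx2, Itgad, Dirc2, Klf10 and Zcchc14 (0.885). After group means were subtracted, r in the Per1 list was lower, from 0.254 for Klf10 to 0.749 for Pdk4, with 0.607 for Fkbp5. In the same way it was 0.861 to 0.964 in the Dbp list and 0.842 to 0.933 in the Arntl list.

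**Figure D4:**
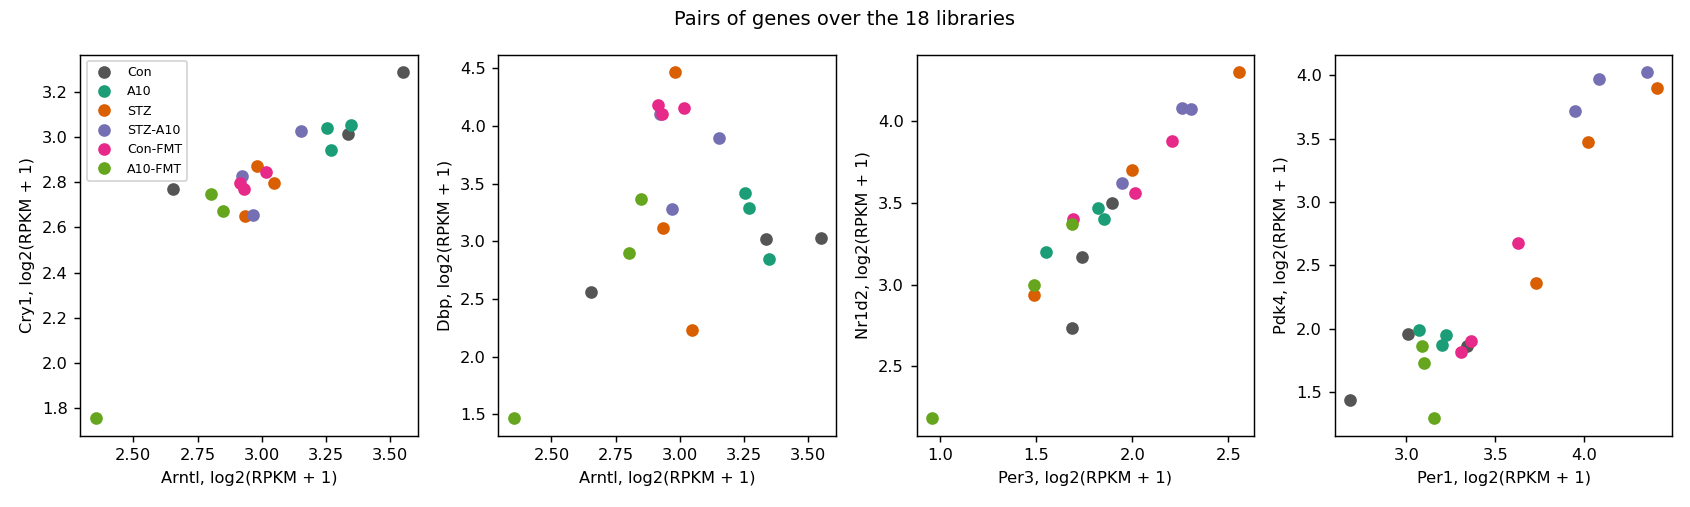
Pairs of genes over the 18 libraries on log2(RPKM + 1) axes, coloured by group: Cry1 against Arntl (r 0.877), Dbp against Arntl (r 0.270), Nr1d2 against Per3 (r 0.96) and Pdk4 against Per1 (r 0.940). The A10-FMT replicate 3 point lies at the lower left of the first 3 panels. After group means were subtracted, r of Pdk4 with Per1 was 0.749.

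Per1 and the glucocorticoid-induced genes were set side by side, since Per1 has a glucocorticoid response element. This list of 12 genes was written with earlier results of these data known. In STZ-A10 against A10, 11 of the 12 were higher, with a median of 0.90, and the libraries of 10 lay above all A10 libraries, where 22.6% of all genes had libraries apart. Pdk4 passed the adjusted threshold, at 2.67, 2.97 and 2.86 RPKM in A10 and 14.71, 12.13 and 15.30 RPKM in STZ-A10, a difference of 1.97 (SE 0.312, adjusted p 0.0322). Fkbp5, a chaperone that dampens the glucocorticoid receptor, differed by 1.14 (SE 0.272, adjusted p 0.103). Klf9, a transcription factor, differed by 1.08 (SE 0.215, adjusted p 0.0744). Zbtb16, one of the 10, was at 0.50, 0.57 and 0.42 RPKM in A10 and 1.46, 0.71 and 1.88 RPKM in STZ-A10. It reached 1 RPKM only in STZ and STZ-A10 libraries, and so passed the filter through groups where it was high. Its difference of 0.62 is therefore a description without a test. In A10-FMT against Con-FMT the same list had a median of -0.09, and 1 of the 12 had libraries wholly lower and 3 wholly higher, where 29.3% of all genes had libraries apart. Against STZ, the median of the list was -0.68 in A10-FMT, with 6 of 12 wholly lower and 1 wholly higher (14.4% of all genes apart), and -0.67 in Con-FMT, with 5 of 12 wholly lower (13.2% of all genes apart). Of 10 immediate early genes, 9 were tested. None passed in any comparison. Their summed level was highest in A10-FMT replicate 2 (383 RPKM), STZ replicate 3 (308 RPKM) and Con replicate 3 (308 RPKM). Per1 was 7.55, 12.23 and 9.14 RPKM in these libraries. The part of glucocorticoids or of acute induction in the Per1 values was not tested.

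Other genes of the clock were counted from lists. Of 12 further clock transcription factors, 9 reached the level for testing, and 11 of 12 clock enzymes did. None passed the adjusted threshold in any comparison, in either direction. Cry2, the second cryptochrome, was at 3.76, 3.81 and 3.56 RPKM in A10 and 5.94, 5.45 and 5.34 RPKM in STZ-A10, with a difference of 0.48 (SE 0.145, p 0.00460, adjusted p 0.207), and its F-test over the 4 groups had an adjusted p of 0.0932. The kinases Csnk1d and Csnk1e, which mark PER proteins for breakdown, had adjusted F-test p of 0.0906, the lowest of these genes in any test, and 0.0932. In A10-FMT against STZ, all 9 transcription factors were lower, with a median of -0.47, and 9 of 11 enzymes were, with a median of -0.14, close to the -0.15 of all genes.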

How the data were processed

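The deposited table holds RPKM per gene symbol, made by the authors from poly(A)-enriched spleen RNA sequenced on an Illumina HiSeq instrument; the labels' processing notes name Bowtie 0.12.2 and mm10, the study's methods name SOAPaligner, and the annotation version is not given in the sources used here. The table holds no counts, so depth is unknown and no counting interval is given; in 253 receptor genes hardly transcribed in spleen, the most frequent value under 0.2 RPKM was 0.03 to 0.09, and values under 1 rest on few reads. Of 19326 lines, 6 with 3 repeated names were left out. Groups were taken from the labels. Differences were fitted with limma 3.58.1 (trend, R 4.3.3) on log2(RPKM + 1), with a coefficient per group over all 18 libraries, for the 12905 genes with an RPKM of at least 1 in at least 3 libraries. All 10 clock genes reached this. P-values are two-sided with Benjamini-Hochberg adjustment over all genes and a threshold of 0.05. The labels do not tie libraries to animals, so p-values measure the spread between libraries, which may be technical. Libraries correlated at r of at most 0.992, so none was taken as a repeat. Correlations used 100000 resamples, and all 46656 arrangements within groups (scipy). The fit was tested on simulated data in which 200 genes were changed by 2 on the log2 scale in STZ-A10. In STZ-A10 against A10, 196 were recovered beside 18 false calls, and in the F-test 197 beside 16. A10-FMT against Con-FMT, where no change was put in, gave 0 calls. Genes were simulated as independent and libraries as equal in quality, so uneven libraries were not covered. The members, gene lists and tests were chosen with earlier results of these data known. Named genes are the 10 members, other clock genes past the threshold, and the 10 genes most correlated with Dbp and Arntl; Cry2, Csnk1d, Csnk1e, the genes like Per1 and the glucocorticoid-induced genes were named after their values were seen. Positions and exon overlaps are from GENCODE M21. The alternatives were quantile normalization, rescaling without globin genes, median centring, another pseudocount, other filters, limma without trend, fits of the compared groups, array weights, a block on the replicate number, and leaving out each library.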

Additional observations from a re-analysis of the deposited data

How the results depend on the processing

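Counts of clock genes past the adjusted threshold were 0 as reported in the comparisons that were tested. These leave out STZ against Con and, for Per1, the other pairwise comparisons with STZ or Con. Counts in the interaction, and in comparisons with STZ or Con, draw on libraries in view when the members were proposed. In STZ-A10 against A10 the count was 1 (Per1) after quantile normalization, rescaling without globin genes, median centring or with only the groups compared, and in the F-test over 4 groups it was 1 after rescaling without globin genes and with only the groups compared. Array weights (estimated gene by gene, 0.112 to 7.37 between libraries) gave 5 clock genes in STZ-A10 against A10, 1 in A10 against Con, 3 in A10-FMT against STZ, 2 in Con-FMT against STZ, 6 in A10-FMT against Con-FMT and 8 in the F-test, while 1327 to 9043 of all genes passed in these comparisons. Leaving out single libraries gave 0 to 1 in STZ-A10 against A10, 0 to 4 in A10-FMT against Con-FMT and 0 to 5 in the F-test. In the same order, counts over all genes were then 1 to 52, 0 to 2625 and 0 to 3288. The highest count over all genes was reached without A10-FMT replicate 2 in the last 2 (2625 and 3288). In the other tested comparisons, those of the transplant groups against STZ aside, single libraries moved no count of clock genes. A setting that leaves a group with 2 libraries relies on the shared spread. The pseudocount of 0.1, both filters, limma without trend and the replicate block moved none of these counts. The cause of these differences was not tested.

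The replicate numbers showed no clear pairing of the libraries. Deviations of same-numbered libraries correlated with a median r of 0.044 (highest 0.571), and 14 of 45 pairs were over 0.1. For libraries with different numbers the median r was -0.009 (highest 0.511), and 23 of 90 pairs were over 0.1. With the replicate block, 0 clock genes passed in each tested comparison, and 1 gene of all tested passed in the F-test, against 17.

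Per2 in A10-FMT against STZ turned to 0.0499 after quantile normalization. For correlations with Arntl, quantile normalization took the r of Clock to 0.527 (adjusted p 0.113) and that of Cry1 within groups to 0.581 (0.187); the latter was 0.745 (0.0667) after rescaling without globin genes and 0.625 (0.0608) after median centring. Signs turned for weak relations. After quantile normalization r was -0.206 for Per1, -0.303 for Per3, -0.360 for Nr1d1, -0.109 for Nr1d2, -0.214 for Dbp and -0.0329 for Tef, and within groups -0.00249 for Per2, -0.294 for Per3, -0.174 for Nr1d1 and -0.0976 for Dbp. After rescaling without globin genes it was -0.0332 for Per1 and -0.0373 for Nr1d1. After median centring it was -0.183 for Per1, -0.119 for Per3, -0.245 for Nr1d1 and -0.0668 for Dbp, and within groups -0.132 for Per3 and -0.0344 for Nr1d1. Values of Per1 are a description, and none of the others had an adjusted p under 0.05.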
